A study of Rattus norvegicus with 24 samples.

Results

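The comparison was that of thymus mRNA from SAM-exposed and sham-exposed Sprague-Dawley rats, both 7 months old, and it rests on 6 of the 24 libraries of the series. The SAM group holds the thymus libraries of animals 1, 3 and 5, and the Sham group those of animals 14, 15 and 17. The labels call the treatment SAM exposure, while the series title speaks of exposure to PCBs (polychlorinated biphenyls, persistent industrial chlorinated compounds). No dose, route, duration, sex or sequencing batch is given, and the only stated difference between the groups is the exposure. Each library carries its own animal number. Beyond that number nothing states how the samples were taken, so p-values measure the spread between these samples.

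The thymus is where T cells mature. Its bulk is made of immature thymocytes, which rearrange their receptor genes while they are held in a mesh of epithelial cells. Cortical epithelium presents self-peptides to select useful cells, and medullary epithelium displays tissue-restricted proteins under the regulator AIRE to remove self-reactive ones. Part of the epithelium carries the keratins KRT5 and KRT14 and the transcription factor p63, as basal cells of skin do, and is anchored through desmosomes and hemidesmosomes. Thymic involution is a classical effect of ligands of the aryl hydrocarbon receptor in rodents, and some PCB congeners bind that receptor.

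Library totals were 15517641 to 17703685 counts in SAM and 19178107 to 19559866 counts in Sham, so that 1 CPM (counts-per-million) stands for 15.5 to 19.6 counts. CPM values below are scaled by the trimmed mean of M values (TMM). The tissue label held in every library: Rag1, which cuts the receptor genes of immature T cells, had 4210, 3460 and 3690 CPM in SAM and 3870, 3280 and 3410 CPM in Sham. The epithelial regulator Foxn1 was detected throughout, at 10.1 to 15.1 CPM in SAM and 16 to 18.9 CPM in Sham.

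One library of each group stood apart from the rest. SAM 1 and Sham 15 took 5.64% and 8.18% of their counts from mitochondrially encoded genes, whereas the other libraries took 3.28% and 3.43% in SAM and 3.64% and 2.95% in Sham. The same libraries carried the most fat-cell RNA: the 11 adipocyte genes, all of them tested, summed to 1010, 249 and 367 CPM in SAM 1, 3 and 5 and to 301, 1570 and 128 CPM in Sham 14, 15 and 17. Adipoq, the adiponectin gene, had 116, 23.4 and 41.2 CPM in SAM and 29.6, 154 and 2.69 CPM in Sham. Ucp1, the uncoupling protein of brown fat, had 1319, 0 and 1 counts in SAM and 2, 2624 and 2 counts in Sham. Sham 15 also held 881 counts of Pth, the parathyroid hormone gene, whereas there were 0, 0 and 1 in SAM and 6 and 1 in Sham 14 and Sham 17. The first principal component, with 44% of the variance of the 2000 most variable genes, ran from -33.7 in Sham 15 and -22.2 in SAM 1 to 23.8 in Sham 17 and did not separate the groups. The second component, with 22.2%, did, at -22.1, -7.33 and -10.9 in SAM 1, 3 and 5 and 5.15, 19.5 and 15.7 in Sham 14, 15 and 17. Results are therefore also given without SAM 1 and Sham 15.

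**Figure D1:**
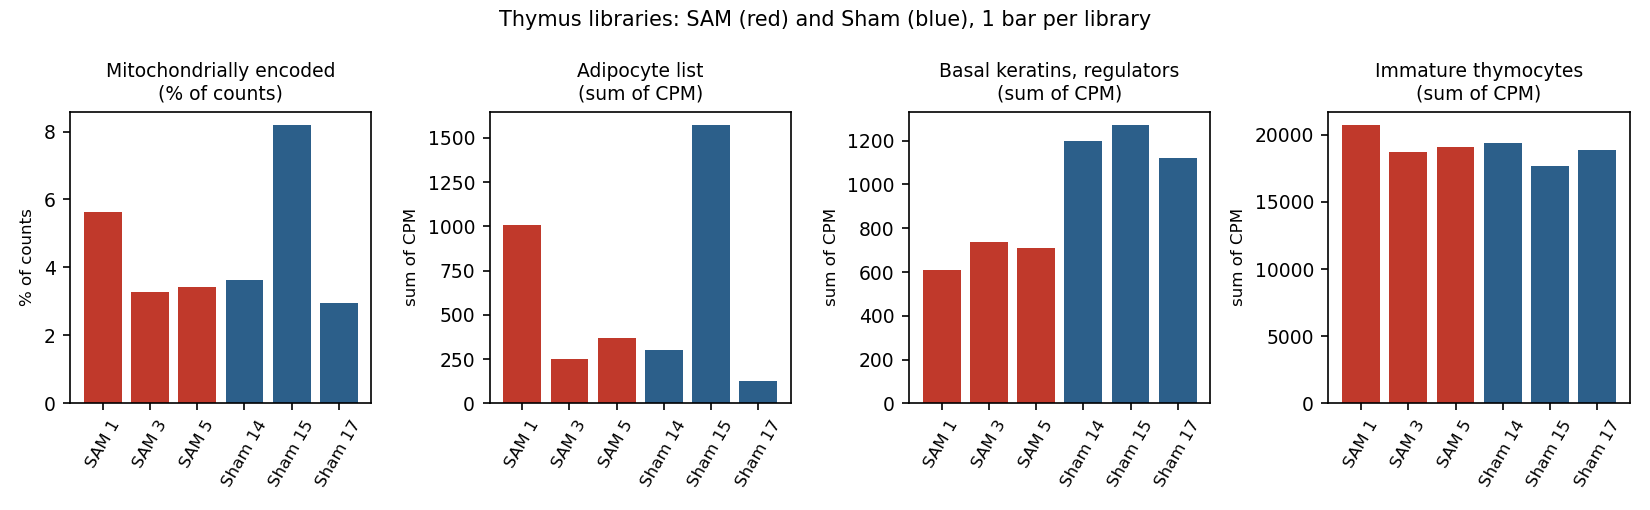
Measures of each thymus library, SAM 1, 3 and 5 in red and Sham 14, 15 and 17 in blue, with 1 bar per library: the percentage of counts from mitochondrially encoded genes, and the summed TMM-scaled CPM of the adipocyte, basal keratin and immature thymocyte lists. SAM 1 and Sham 15 are highest in the first and second panels, while the basal keratin sums are 610 to 735 CPM in SAM and 1120 to 1270 CPM in Sham.

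Genes of basal epithelium made up the clearest difference, and they were lower in SAM. Krt5 was at 54.2% of its Sham mean and Krt14 at 58.8%. Outside the basal lists, the hyaluronidase gene Hyal1 was at 40.1% and the membrane protein gene Emp2 at 51.0%. With all 6 libraries DESeq2 called few genes higher, among them Tecta at 149% of its Sham mean and the fibronectin gene Fn1 at 194%. Tecta had the lowest p-value in this direction. Thymocyte genes lay close to equal in both groups. In bulk tissue, fewer cells of a type and less RNA per cell cannot be told apart.

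How many genes pass depends on the test. The quasi-likelihood test of edgeR called 0 of 15036 genes at an adjusted p of 0.05, with 0.0877 as the lowest adjusted p. At an unadjusted p under 0.05 the same test had 922 genes (6.13%), of which 249 (1.66%) were higher and 673 (4.48%) lower in SAM. That total, in either direction, moved when 1 library was left out. It was 663 of 15351 without SAM 1, 753 of 15398 without SAM 3 and 1079 of 15360 without SAM 5. Without Sham 14, 15 or 17 it was 847 of 15282, 741 of 15185 and 1106 of 15284. List counts given below for such fits are to be read beside these totals. The Wald test of DESeq2, the alternative tool, called 100 of the 13853 genes to which it gave an adjusted p (0.722%), with 8 (0.0577%) higher and 92 (0.664%) lower. Leaving out SAM 1 and Sham 15, DESeq2 called 41 genes, 35 of them among the 100, and every one of the 100 kept its sign. The 100 were called on libraries that include those kept, so the kept signs are no independent support. The groups did not overlap at 747 genes higher in SAM (4.97%) and 1047 lower (6.96%). Log2 fold changes are SAM minus Sham, with their standard error (SE), and their median over all genes tested was -0.001.

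**Figure D2:**
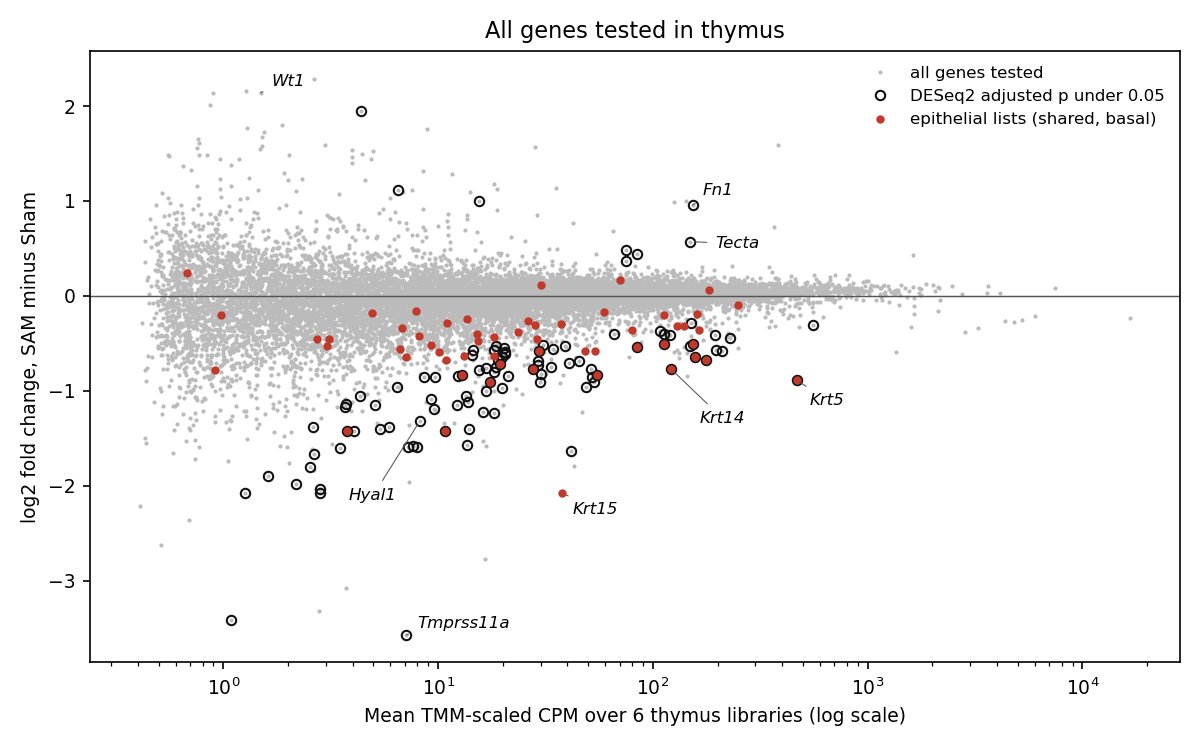
Log2 fold change, SAM minus Sham, against the mean TMM-scaled CPM of the 6 thymus libraries (log axis) for the 15036 genes tested; open circles mark the 100 genes called by DESeq2 and red dots the members of the shared and basal epithelial lists. Most circles and red dots lie below 0, with Krt5 at -0.88 as the most abundant gene among the lowest p-values.

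The 3 genes with the lowest edgeR p-values among those with a RefSeq promoter entry are shown by the 250 bases before and the 50 bases after their start (RefSeq, GRCr8 build). Capitals mark matches, on either strand, to the GC box GGGCGG, to the dioxin response element core GCGTG, through which the aryl hydrocarbon receptor binds, or to the AP-1 motif TGANTCA. The Krt5 promoter is at chr7:134730520-134730819 on the minus strand, that of Hyal1 at chr8:117129061-117129360 on the plus strand and that of Emp2 at chr10:5866619-5866918 on the plus strand.
Krt5: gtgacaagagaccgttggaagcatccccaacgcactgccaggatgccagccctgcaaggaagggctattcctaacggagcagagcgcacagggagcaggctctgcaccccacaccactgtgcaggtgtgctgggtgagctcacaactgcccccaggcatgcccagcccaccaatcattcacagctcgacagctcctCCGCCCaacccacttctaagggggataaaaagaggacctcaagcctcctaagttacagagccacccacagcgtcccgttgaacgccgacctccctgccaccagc
Hyal1: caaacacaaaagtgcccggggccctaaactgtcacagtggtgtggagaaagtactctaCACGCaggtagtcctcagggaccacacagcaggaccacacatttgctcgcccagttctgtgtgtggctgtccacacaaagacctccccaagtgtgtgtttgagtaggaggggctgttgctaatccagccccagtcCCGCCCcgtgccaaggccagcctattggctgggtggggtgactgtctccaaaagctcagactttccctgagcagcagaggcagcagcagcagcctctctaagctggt
Emp2: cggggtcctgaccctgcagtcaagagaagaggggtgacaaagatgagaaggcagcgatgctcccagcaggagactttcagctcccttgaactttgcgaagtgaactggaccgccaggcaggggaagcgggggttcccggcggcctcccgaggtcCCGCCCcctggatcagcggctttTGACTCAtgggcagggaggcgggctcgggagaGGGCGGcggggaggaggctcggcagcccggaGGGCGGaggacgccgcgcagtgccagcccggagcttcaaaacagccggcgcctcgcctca

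The Krt5 window held 1 GC box. In the Hyal1 window there was 1 dioxin response element core and 1 GC box, and in that of Emp2 1 AP-1 motif and 3 GC boxes. Over the 77 genes lower in SAM by DESeq2 that have a promoter entry, the response element core was present in 46.8%, compared with 47.3% of the 11544 promoters of genes tested. The GC box was present in 66.2% of the 77 and 59.1% of the 11544, the AP-1 motif in 11.7% and 5.22%, and the TATA box TATAAA in 9.09% and 7.54%. A match is a description of these letters and was not tested as a binding site.

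Krt5 encodes the type II keratin of basal epithelial cells. It had 311, 366 and 307 CPM in SAM 1, 3 and 5, and 618, 626 and 573 CPM in Sham 14, 15 and 17. Every SAM library lay far below every Sham library, and the spread inside each group (33.2 and 28.3 CPM, SD, n = 3 each) was small beside the gap. The log2 fold change was -0.88 ± 0.08 (SE), with an adjusted p of 0.0877 by edgeR and 3.2e-20 by DESeq2. Its partner keratin Krt14 had 80.6, 88.7 and 98.5 CPM in SAM and 157, 146 and 152 CPM in Sham (log2 fold change -0.77 ± 0.08, adjusted p 0.0877 by edgeR, 3.35e-12 by DESeq2). With SAM 1 and Sham 15 left out, the log2 fold changes were -0.82 ± 0.10 for Krt5 and -0.72 ± 0.08 for Krt14.

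**Figure D3:**
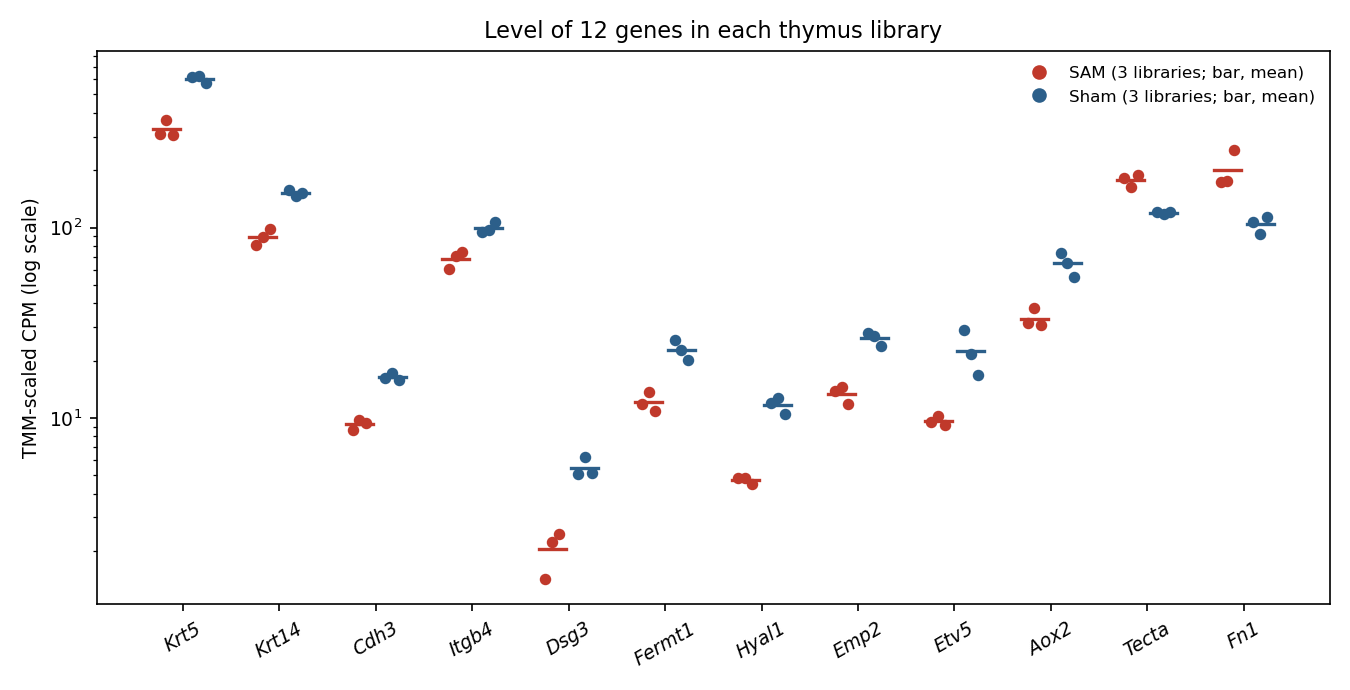
TMM-scaled CPM (log axis) of 12 genes in each thymus library, SAM in red on the left and Sham in blue on the right of each gene; points are libraries and bars are group means (n = 3 each). The groups do not overlap at any of the 12 genes, with SAM below Sham at the first 10 and above it at Tecta and Fn1.

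Of the 12 tested basal keratins and their regulators, 9 were lower in SAM at an unadjusted p under 0.05 and 0 higher, beside 4.48% and 1.66% of all genes. Their median log2 fold change was -0.65, and the groups did not overlap at 10, all lower, beside 6.96% of all genes. DESeq2 called 7 of them lower, beside 0.664% of the genes to which it gave an adjusted p. Leaving out SAM 1 and Sham 15 gave 8 of 12 lower, beside 2.54% of all genes, with a median of -0.46. The list was drawn up with earlier results on these libraries known, so its direction is a description.

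Krt17, a keratin of stressed and appendage epithelium, had 76.6, 102 and 100 CPM in SAM and 122, 124 and 151 CPM in Sham. Tp63, the master regulator of basal cells, had 19.4, 24.6 and 27.1 CPM in SAM and 34.6, 38.9 and 32.9 CPM in Sham. Trim29, a marker of basal cells, had 10.5, 16.4 and 17.4 CPM in SAM and 23, 25.5 and 24 CPM in Sham. All 3 were apart between the groups, with SAM 1 the lowest library each time. Adjusted p-values were 0.487, 0.443 and 0.487 by edgeR and 0.025, 0.018 and 0.0347 by DESeq2. Perp, a desmosomal p63 target, had 30.3, 38.6 and 49.7 CPM in SAM and 74.1, 77 and 59.6 CPM in Sham (adjusted p 0.409 by edgeR, 0.00081 by DESeq2).

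Krt15, a keratin of basal progenitor cells, differed in another way. It had 13.1, 10.3 and 20.3 CPM in SAM and 50.9, 116 and 16.7 CPM in Sham, so that Sham 17 lay inside the SAM range. Its log2 fold change of -2.08 ± 0.63 was the largest of the list, its adjusted p was 0.626 by edgeR and 0.407 by DESeq2, and without SAM 1 and Sham 15 the value was -1.15 ± 0.51.

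Genes of adhesion in basal cells were lower alongside the keratins. Among 23 tested members, 11 (47.8%) were lower at an unadjusted p under 0.05 and 0 higher, beside 4.48% and 1.66% of all genes. At 13 the groups did not overlap, all of them lower, beside 6.96% of all genes, and the median was -0.38. DESeq2 called 5 lower, beside 0.664% of the genes to which it gave an adjusted p. Without SAM 1 and Sham 15, 9 of the 23 (39.1%) were lower, beside 2.54% of all genes. The median was then -0.23, and with SAM 1 alone left out it was -0.23 as well. Without Sham 17, 7 were lower.

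Cdh3 encodes P-cadherin, the classical cadherin of basal cells. It had 8.69, 9.76 and 9.36 CPM in SAM and 16.3, 17.3 and 15.8 CPM in Sham (log2 fold change -0.83 ± 0.11, adjusted p 0.156 by edgeR, 0.00012 by DESeq2). Itgb4, the integrin beta 4 chain of hemidesmosomes, had 60.3, 71 and 74.6 CPM in SAM and 94.4, 97.6 and 107 CPM in Sham (log2 fold change -0.54 ± 0.09). Both genes were tight inside each group. The desmosomal cadherin Dsg3 had 1.42, 2.24 and 2.47 CPM in SAM and 5.06, 6.24 and 5.13 CPM in Sham, so it was at 37.3% of its Sham mean. Fermt1, encoding kindlin-1, an activator of integrins in epithelium, had 11.8, 13.7 and 10.9 CPM in SAM and 25.6, 22.7 and 20.1 CPM in Sham. Dsp, the desmoplakin gene, had 92.3, 145 and 130 CPM in SAM and 203, 190 and 181 CPM in Sham. DESeq2 gave Itgb4, Dsg3, Fermt1 and Dsp adjusted p-values of 0.000363, 0.00201, 3.12e-05 and 0.00279. Those of edgeR were 0.289, 0.289, 0.229 and 0.454. At the other end of the list, the periplakin gene Ppl had 30.5, 27.8 and 36 CPM in SAM and 25.3, 27.3 and 34.5 CPM in Sham, and the groups overlapped.

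Markers shared by thymic epithelial cells were also lower, and their median moved further when SAM 1 was left out. Of 21 members, 8 (38.1%) were lower in SAM at an unadjusted p under 0.05 and 0 higher, beside 4.48% and 1.66% of all genes. The median was -0.46, and 9 did not overlap, all lower, beside 6.96% of all genes. DESeq2 called 3 lower, beside 0.664% of the genes to which it gave an adjusted p. The median was -0.26 with SAM 1 left out and -0.23 with both SAM 1 and Sham 15 left out. In the latter fit 5 members were lower and 1 higher, beside 2.54% and 1.51% of all genes. Without SAM 5, 13 were lower, and without Sham 15, 5. Epcam, the epithelial cell adhesion molecule, had 34.8, 39.5 and 55.3 CPM in SAM and 61.2, 71.6 and 60.9 CPM in Sham (log2 fold change -0.58 ± 0.17, adjusted p 0.569 by edgeR and 0.0556 by DESeq2). Foxn1, which drives the epithelial program of the thymus, had 10.1, 14.2 and 15.1 CPM in SAM and 18.9, 17.2 and 16 CPM in Sham. The groups were apart by a small margin, and the log2 fold change of Foxn1 was -0.40 ± 0.16 with an adjusted p of 0.805 by edgeR.

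Of the simple-epithelium keratins of this list, 3 were apart between the groups and 1 was not. Krt8 had 103, 146 and 132 CPM in SAM and 181, 195 and 163 CPM in Sham (adjusted p 0.498 by edgeR, 0.0182 by DESeq2). Krt7 had 157, 146 and 107 CPM in SAM and 228, 212 and 213 CPM in Sham (0.361 by edgeR, 0.000147 by DESeq2). Krt19 had 6.10, 7.24 and 4.30 CPM in SAM and 21.8, 16.8 and 8.79 CPM in Sham, at 37.2% of its Sham mean. Krt18, the partner of Krt8, had 97.6, 133 and 116 CPM in SAM and 136, 163 and 132 CPM in Sham, and here the groups overlapped.

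The lists of cortical and medullary epithelial function had medians nearer 0, a contrast with the basal lists that was not tested. Not all their members are specific to epithelium, so these medians do not measure such cells alone. Of 13 cortical genes 3 (23.1%) were lower at an unadjusted p under 0.05 and of 13 medullary genes 1 (7.69%), beside 4.48% of all genes, and no member of either list was higher. The medians were -0.18 and -0.14. Without SAM 1 and Sham 15 the counts were 1 and 0, beside 2.54% of all genes, and the medians -0.152 and -0.012, with 1 cortical gene higher. Ccl25, the chemokine that draws thymocyte precursors into the cortex, had 165, 205 and 210 CPM in SAM and 243, 292 and 250 CPM in Sham (adjusted p 0.484 by edgeR, 0.0178 by DESeq2). Cxcl12, the other main cortical chemokine, had 89.1, 105 and 112 CPM in SAM and 123, 158 and 123 CPM in Sham. In the spleen libraries of the series Cxcl12 had 244 to 466 CPM and the medullary Ccl21 887 to 1310 CPM. Both ranges lay above every thymus library, whereas Psmb11 and Aire had too few counts to be tested in spleen. Psmb11, the catalytic subunit of the thymoproteasome, overlapped, with 12.7, 23.6 and 22.3 CPM in SAM and 20.7, 21.9 and 23.6 CPM in Sham. Aire overlapped as well, with 4.31, 7.29 and 7.46 CPM in SAM and 5.97, 6.84 and 7.62 CPM in Sham. SAM 1 was the lowest library for Psmb11 and Aire, and without it their log2 fold changes were 0.056 and 0.116, beside -0.176 and -0.099 with all 6 libraries.

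High adipocyte and brown-fat values occurred in SAM 1 and Sham 15, so in each group, but at unequal levels. The 3 tested brown-fat genes summed to 83.6 CPM in SAM 1 and 160 CPM in Sham 15. All 3 had log2 fold changes below 0, with a median of -1.20. The 13 mitochondrially encoded genes were all below 0 as well, with a median of -0.275. The part of this RNA in the epithelial values was not tested beyond leaving these libraries out.

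Receptors and ligands that act on epithelium followed the same direction in part. Of 13 growth factor genes 4 (30.8%) were lower at an unadjusted p under 0.05 and 0 higher, beside 4.48% and 1.66% of all genes. Their median was -0.31. The count was 2 without SAM 1, without SAM 3 or without Sham 14, and 1 without Sham 15. Leaving out both SAM 1 and Sham 15 gave 2 (15.4%), beside 2.54% of all genes, with a median of -0.133. Fgfr2, whose epithelial form receives FGF7 and FGF10 and is needed for thymic epithelial growth in mice, had 20, 21.8 and 19.4 CPM in SAM and 41.8, 33.8 and 28.7 CPM in Sham (adjusted p 0.336 by edgeR, 0.000689 by DESeq2). Its ligand Fgf7 had 0.740, 0.617 and 1.39 CPM in SAM and 1.57, 2.31 and 1.88 CPM in Sham, at low levels that did not overlap. Etv5, a transcription factor induced by FGF signalling, had 9.49, 10.2 and 9.23 CPM in SAM and 29, 21.7 and 16.8 CPM in Sham (adjusted p 0.289 by edgeR, 1.08e-05 by DESeq2).

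The WNT list had 5 of 27 tested members (18.5%) lower at an unadjusted p under 0.05 and 0 higher, with a median of -0.15. Over all genes the shares were 4.48% and 1.66%. Without SAM 1 and Sham 15, 3 of 28 (10.7%) were lower and 1 higher, with a median of -0.055. In that fit the shares over all genes were 2.54% and 1.51%. Lgr4, a receptor for R-spondins that amplifies WNT signals, had 15.1, 15.9 and 15.4 CPM in SAM and 26, 25.9 and 20.7 CPM in Sham. Sfrp1, a secreted WNT inhibitor, had 13.3, 14.6 and 13.9 CPM in SAM and 22.1, 26.3 and 21.9 CPM in Sham. DESeq2 called both, with adjusted p-values of 0.00275 and 0.000176, while those of edgeR were 0.289 and 0.229. Wnt10a, Wnt10b and Fzd10 made up the other members at an unadjusted p under 0.05, each under 5 CPM.

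Among 16 chemokines and receptors 5 (31.2%) were lower at an unadjusted p under 0.05 and 0 higher, beside 4.48% and 1.66% of all genes. Their median was -0.23. With SAM 1, SAM 3 or any 1 of the Sham libraries left out, 3 were lower, and the median was -0.069 without SAM 1 and -0.042 without Sham 17. Leaving out both SAM 1 and Sham 15 gave 2 (12.5%), beside 2.54% of all genes, and a median of -0.132. Ackr4, a scavenging receptor for CCL19, CCL21 and CCL25, had 20.7, 25.1 and 20.3 CPM in SAM and 38.7, 43.5 and 27.5 CPM in Sham (adjusted p 0.458 by edgeR, 0.0106 by DESeq2). Ccl21, the medullary chemokine, overlapped widely, with 192, 401 and 396 CPM in SAM and 308, 369 and 557 CPM in Sham. The deposited table may split reads among near-identical Ccl21 copies, so its level is uncertain.

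Hyal1, which degrades hyaluronan, had 4.81, 4.82 and 4.49 CPM in SAM and 12, 12.7 and 10.5 CPM in Sham. The SAM libraries were nearly equal to each other, and the highest of them was under 5 CPM. The log2 fold change was -1.32 ± 0.14, with an adjusted p of 0.0877 by edgeR and 7.93e-08 by DESeq2. No other tested gene of hyaluronan synthesis or breakdown showed groups that were apart. Among 12 members 2 (16.7%) were lower at an unadjusted p under 0.05, beside 4.48% of all genes, and the median was -0.13. The second was the hyaluronan-binding Tnfaip6. Without SAM 1, SAM 3 or Sham 15, 1 was lower.

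Emp2, an epithelial membrane protein of the tetraspan kind, had 13.8, 14.5 and 11.8 CPM in SAM and 28, 26.9 and 23.9 CPM in Sham (log2 fold change -0.97 ± 0.12, adjusted p 0.129 by edgeR and 6.37e-08 by DESeq2). Aox2, an aldehyde oxidase, had 31.4, 37.6 and 30.7 CPM in SAM and 73.9, 65.5 and 55 CPM in Sham (log2 fold change -0.96 ± 0.13). Of 5 genes, the aldehyde oxidases and the related Xdh, 2 (40%) were lower at an unadjusted p under 0.05, Aox2 and Aox4, and 0 higher. The shares over all genes were 4.48% and 1.66%. Without SAM 3, SAM 5 or Sham 15, 1 was lower. Olfml2a and Tenm4, also among the lowest p-values of edgeR or DESeq2 in this direction, had log2 fold changes of -0.81 and -1.15. Tenm4 encodes a teneurin adhesion receptor.

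The largest negative fold changes among genes of at least 5 CPM with no overlap came with uneven levels inside a group. Tmprss11a, a membrane serine protease of squamous epithelium, had 1.29, 1.12 and 0.886 CPM in SAM and 10.1, 25.4 and 3.96 CPM in Sham. Its log2 fold change was -3.57 ± 0.67 with all libraries and -2.80 ± 0.50 without SAM 1 and Sham 15, the libraries highest in fat RNA. Aldh1a1, a retinaldehyde dehydrogenase, had 22.3, 20.2 and 18.6 CPM in SAM and 51.3, 99.5 and 38.4 CPM in Sham. Its log2 fold change was -1.63 ± 0.33, and -1.21 ± 0.15 without those libraries. Reads of Aldh1a1 and of its near-identical copy Aldh1a7 may be split, and Aldh1a7 had 5.49, 4.09 and 0.569 CPM in SAM and 0.557, 1.67 and 7.57 CPM in Sham. S100g, a calcium-binding protein, had 39.7, 14 and 3.98 CPM in SAM and 76.9, 71.5 and 51.4 CPM in Sham, and DESeq2 gave it an adjusted p of 0.809. Rapgefl1, a guanine nucleotide exchange factor, and the unnamed AABR07043271.1 both had log2 fold changes of -1.59, with lowest values in SAM 5.

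With all 6 libraries the genes that DESeq2 called higher in SAM were few, 8 beside 92 lower. The split depended on the libraries. Without Sham 14 there were 31 higher and 41 lower, and without Sham 17, 25 higher and 106 lower. Tecta encodes alpha-tectorin, known from the tectorial membrane of the inner ear, and had 182, 163 and 189 CPM in SAM and 121, 118 and 120 CPM in Sham. The Sham libraries were nearly equal to each other. Its log2 fold change was 0.57 ± 0.07, with an adjusted p of 0.129 by edgeR and 9.6e-09 by DESeq2, and without SAM 1 and Sham 15 it was 0.54 ± 0.09. Tectb, beta-tectorin, had 2.28, 1.68 and 1.58 CPM in SAM and 1.27, 1.35 and 1.32 CPM in Sham.

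Fn1, fibronectin of the extracellular matrix, had 173, 176 and 256 CPM in SAM and 107, 92.2 and 113 CPM in Sham (log2 fold change 0.96 ± 0.16, adjusted p 0.289 by edgeR and 4.36e-07 by DESeq2). Other matrix genes did not share this size of difference. Of 16 fibroblast and matrix genes 2 (12.5%) were higher at an unadjusted p under 0.05 and 0 lower, beside 1.66% and 4.48% of all genes. Their median was -0.040. Without Sham 14, 4 were higher, and without SAM 5, 2 were lower. The second was Col1a1, a chain of type I collagen, with 53.1, 62.5 and 71.7 CPM in SAM and 53.4, 43.2 and 41.9 CPM in Sham, where SAM 1 lay just under the highest Sham library. Markers of mesothelium, the lining of the chest cavity, were highest in SAM 5 with the exception of Krt19, which epithelium carries too: Wt1 had 1.73, 2.13 and 3.48 CPM in SAM and 1.27, 0.161 and 0.203 CPM in Sham. The 5 mesothelial genes other than Krt19 all had log2 fold changes above 0, with a median of 1.57, and 1 of them, Wt1, was higher at an unadjusted p under 0.05. They summed to 27, 24.2 and 52.8 CPM in SAM and 31.2, 16.1 and 13.6 CPM in Sham, so the groups overlapped. Whether such cells carry part of the Fn1 difference was not tested.

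Cmtm7, a membrane protein of lymphocytes, had 89.8, 102 and 99.6 CPM in SAM and 67.1, 71.9 and 76 CPM in Sham (adjusted p 0.289 by edgeR, 0.00111 by DESeq2). Phlda1, a pleckstrin-homology protein, had 86.3, 82 and 86.1 CPM in SAM and 61.5, 69.6 and 66.5 CPM in Sham (0.289 by edgeR, 0.00561 by DESeq2). RGD1563231, annotated as similar to an immunoglobulin kappa chain, had 15.8, 24.7 and 21.5 CPM in SAM and 10.6, 9.42 and 11.1 CPM in Sham, and as a member of a family of near-identical genes its count is uncertain. LOC100912195, annotated as BEX1-like, and the unnamed AABR07065789.1 and AABR07065768.1 complete the genes that DESeq2 called higher, with log2 fold changes of 0.48, 1.12 and 1.95. Among genes with the lowest edgeR p-values in this direction, Mfsd2b and Cdc14b had log2 fold changes of 1.38 and 0.23 and were not called by either tool. The largest positive fold changes among genes of at least 5 CPM with no overlap belonged to the unnamed AABR07034730.3, AABR07034730.2 and AABR07051551.1, at 1.76, 1.57 and 1.14, with adjusted p-values of 0.0756 or more by DESeq2.

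Thymocyte genes differed by small amounts. Of 26 tested markers of immature thymocytes, 21 had log2 fold changes above 0, beside 7448 of all 15036 genes. The values ran from -0.123 to 0.243, with a median of 0.043. At 4 the groups were apart, all higher, beside 4.97% of all genes. At an unadjusted p under 0.05, 1 (3.85%) was higher in SAM and 0 lower, beside 1.66% and 4.48% of all genes. Without Sham 14, 3 were higher at that threshold, and without Sham 17, 2, beside 847 of 15282 and 1106 of 15284 genes in either direction. The member at that threshold was Ptcra, the pre-T-cell receptor alpha chain, with 93.8, 86.2 and 84.3 CPM in SAM and 73.6, 73.3 and 76.4 CPM in Sham (log2 fold change 0.24 ± 0.06, adjusted p 0.458 by edgeR and 0.248 by DESeq2). Cd8a, Cd3e and Cd3g were the other 3 that were apart, at log2 fold changes of 0.12, 0.10 and 0.11. Dntt, the terminal transferase of immature T cells, had a log2 fold change of 0.007 ± 0.084, whose size is within its error. All 19 proliferation genes had log2 fold changes above 0, between 0.009 and 0.206, and none passed an unadjusted p of 0.05 or was apart. Their sums were 5850, 5950 and 4800 CPM in SAM and 5420, 5020 and 4740 CPM in Sham, so SAM 5 lay near the lowest Sham library. Without SAM 5, 15 of the 19 were higher at an unadjusted p under 0.05, beside 2.19% of all genes, and the median was 0.211, compared with 0.129 when all 6 libraries were used.

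For other cell types, medians were 0.074 for 9 mature T cell genes, 0.004 for 12 genes of regulatory T cells, -0.16 for 12 B cell genes, -0.23 for 11 dendritic cell genes, -0.12 for 11 macrophage genes and -0.007 for 10 endothelial genes. No member of the mature T, regulatory T, B cell or endothelial lists had an unadjusted p under 0.05 with all 6 libraries. Without Sham 17, 3 mature T cell genes and 2 genes of regulatory T cells were higher, beside 1106 of 15284 genes in either direction. Without Sham 14, 2 B cell genes were lower, beside 847 of 15282 genes in either direction. Of the macrophage genes 11 of 11 had log2 fold changes below 0, and 3 were apart, all lower, beside 6.96% of all genes. At an unadjusted p under 0.05, 2 (18.2%) were lower, Mertk and Timd4, receptors for dying cells, beside 4.48% of all genes. With SAM 1, SAM 5, Sham 14 or Sham 17 left out, 0 were, and without Sham 15, 1. Of the dendritic cell genes 9 of 11 were below 0 and 1 (9.09%) was lower, Irf8, a transcription factor of dendritic cells, beside 4.48% of all genes. Without SAM 3, 4 were lower, beside 753 of 15398 genes in either direction. Among 9 genes of pericytes and smooth muscle 2 (22.2%) were lower, the contractile genes Myh11 and Des, beside 4.48% of all genes, and the median was -0.24. With SAM 1, SAM 5 or Sham 14 left out, 1 was lower. In the plasma cell list the members went in opposite directions: Mzb1, a chaperone of antibody secretion, had 15.4, 16.3 and 24.8 CPM in SAM and 15.2, 13.3 and 9.61 CPM in Sham, while Sdc1, the syndecan that epithelial cells carry too, had 16, 21.9 and 24.3 CPM in SAM and 36.6, 49.2 and 31.0 CPM in Sham. Class II MHC genes were below 0 in 9 of 9 cases, with a median of -0.19 and 0 at an unadjusted p under 0.05. Without SAM 1 and Sham 15 that median was -0.008.

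Targets of the aryl hydrocarbon receptor did not pass the test in either direction. Cyp1a1, the cytochrome most responsive to the aryl hydrocarbon receptor, had 7, 5 and 7 counts in SAM and 14, 37 and 2 counts in Sham, too few for the test. Cyp1b1, another target, had 20.3, 33.9 and 39.9 CPM in SAM and 42.2, 36.8 and 36 CPM in Sham (log2 fold change -0.29 ± 0.22). Tiparp, which feeds back on the receptor, had 11.5, 10.5 and 11.6 CPM in SAM and 10.1, 14.6 and 11.5 CPM in Sham. Nqo1, a quinone reductase, had 5.92, 4.54 and 5.38 CPM in SAM and 6.83, 7.00 and 6.45 CPM in Sham, apart between the groups with an unadjusted p of 0.0537. Of the 7 tested genes of the receptor pathway 0 had an unadjusted p under 0.05 in either direction, and their median was -0.11. Without Sham 17, 2 were lower, beside 1106 of 15284 genes in either direction. For targets of the CAR and PXR receptors 2 of 9 (22.2%) were lower and 0 higher, and 1 of 15 NRF2 targets (6.67%) was lower, beside 4.48% of all genes. The first count was 1 with SAM 1, SAM 5, Sham 15 or Sham 17 left out. Glucocorticoids shrink the thymus. Of 11 genes, those of the glucocorticoid receptor and of its response, 3 were lower (Tsc22d3, Ddit4 and Errfi1, all overlapping between the groups) and 0 higher. The 3 lower were 27.3% of the list, beside 4.48% of all genes, and the median was -0.078. That count was 0 without SAM 1, SAM 3 or Sham 14 and 1 without Sham 17, and without Sham 14 the median was 0.022 and 1 gene was higher. Of 14 genes of the p53 response and apoptosis 2 (14.3%) were higher and 0 lower, beside 1.66% and 4.48% of all genes. The death receptor gene Fas had 177, 156 and 153 CPM in SAM and 129, 143 and 145 CPM in Sham. Bcl2l1, which protects thymocytes from death, had 205, 208 and 196 CPM in SAM and 180, 191 and 180 CPM in Sham. Without SAM 1, or without Sham 14, 0 were higher and 1 lower, without SAM 3 or Sham 17 there was 1 in each direction, and without Sham 15 there were 3 higher and 2 lower.

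Genes of the circadian clock were in part lower in SAM. Of 16 members 5 (31.2%) were lower at an unadjusted p under 0.05 and 0 higher, beside 4.48% and 1.66% of all genes. Their median was -0.31. Tef, a transcription factor driven by the clock, had 27.4, 25.6 and 29.7 CPM in SAM and 37.5, 47.4 and 37.1 CPM in Sham (adjusted p 0.407 by edgeR, 0.008 by DESeq2). Nr1d2, Bhlhe40, Per2 and Per3, all clock repressors, had log2 fold changes of -0.35, -0.41, -0.44 and -0.47. Npas2, which belongs to the opposite arm of the clock, had 2.40, 2.64 and 2.53 CPM in SAM and 1.72, 2.15 and 1.47 CPM in Sham. The times of day at which tissues were taken are not given, so exposure and time of collection cannot be told apart here. Without SAM 1, or without SAM 3, 3 clock genes were lower. Without SAM 1 and Sham 15, 3 were lower and 1 higher, beside 2.54% and 1.51% of all genes, and the clock median was -0.20.

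Genes that handle retinoic acid, which acts on both epithelium and thymocytes, went both ways. At an unadjusted p under 0.05, 2 of 16 (12.5%) were lower and 2 higher, beside 4.48% and 1.66% of all genes. Without SAM 5, or without Sham 15, there was 1 in each direction, and without Sham 17, 4 were lower and 1 higher. Over all genes, 1106 of 15284 passed in either direction without Sham 17. Next to Aldh1a1, Crabp2, a retinoic acid carrier, was lower with a log2 fold change of -0.49 ± 0.20. Aldh1a2, the main synthesizing enzyme of mesenchyme, had 6.66, 6.84 and 8.98 CPM in SAM and 5.06, 4.95 and 4.83 CPM in Sham. Cyp26b1, which breaks retinoic acid down, had 2.96, 3.09 and 3.98 CPM in SAM and 2.53, 1.78 and 1.83 CPM in Sham.

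The genes most like Krt5 in their pattern over the 6 libraries, by Pearson correlation of log2 CPM, were Hhex (r = 0.996), Luzp1 (0.995), Abcg3l1 (0.993), Cdh3 (0.991), Emp2 (0.989), Trim24 (0.988), Hyal1 (0.987), RGD1311892 (0.987), Pkp3 (0.986) and Fermt1 (0.986). These values describe libraries shared by both genes of each pair and largely repeat the split between the groups. They come with very different sizes: the log2 fold change was -0.30 for Hhex and -0.15 for Trim24, but -1.15 for RGD1311892.

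Spleen, the other lymphoid organ of the series, gives the same contrast outside the thymus. It was sampled from animals with the same 6 numbers, though nothing states that equal numbers are the same rat. Krt5, Krt14, Tecta, Aox2 and Tp63 had too few counts to be tested in spleen. Hyal1 had 14.8, 16.4 and 13.2 CPM in SAM spleen and 13.3, 15.7 and 12.1 CPM in Sham spleen, a log2 fold change of 0.11 ± 0.13 beside -1.32 in thymus. Emp2 had 28.1, 32.4 and 26.7 CPM in SAM spleen and 32.2, 32.7 and 30.4 CPM in Sham spleen, and Etv5 had 19.1, 21.9 and 17.4 CPM in SAM spleen and 17.1, 19.6 and 18.7 CPM in Sham spleen.

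Other genes had the same sign in both organs, though no spleen value here passed the adjustment (adjusted p 0.967 by edgeR for each). Cmtm7 had 64, 66.9 and 68.1 CPM in SAM spleen and 57, 55.6 and 50.9 CPM in Sham spleen, a log2 fold change of 0.28 ± 0.07 with an unadjusted p of 0.00344. Tef had 67.5, 78.6 and 72.9 CPM in SAM spleen and 89.3, 86.4 and 86 CPM in Sham spleen (log2 fold change -0.26 ± 0.07, unadjusted p 0.00651). At both genes the spleen groups were apart. Per2, Bhlhe40 and Nr1d2, also of the clock, had spleen log2 fold changes of -0.41, -0.19 and -0.18, with unadjusted p-values of 0.0343, 0.0319 and 0.0461. Fn1 had 68.1, 62.2 and 77.8 CPM in SAM spleen and 60.9, 62.2 and 54.4 CPM in Sham spleen, a log2 fold change of 0.23 ± 0.10 with an unadjusted p of 0.0457. Over all genes 4.11% of 14530 had an unadjusted p under 0.05 in spleen.

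The test of the difference itself, the interaction of tissue and exposure over 12 libraries, called 0 of 15781 genes with edgeR, and 649 (4.11%) had an unadjusted p under 0.05. The lowest adjusted p was 0.106, for Hyal1, whose log2 difference between the tissues was -1.43 ± 0.19. DESeq2 called 3 genes, Hyal1, Emp2 and Etv5, with adjusted p-values of 3.86e-06, 0.00302 and 0.0045. By unadjusted edgeR p, C3ar1 (6.24e-05) and the unnamed AABR07033887.1 (8.03e-05) came before Emp2 (9.37e-05) and Etv5 (0.000165). Their log2 fold changes were -1.20 and -0.16 in thymus and 0.54 and 0.77 in spleen. In the other direction Kcnn3 had 1.24 in thymus and -0.45 in spleen (unadjusted interaction p 0.000481 by edgeR). Of the 64 genes lower in thymus by DESeq2 that were tested in spleen, 44 (68.8%) had a spleen log2 fold change below 0, compared with 49.0% of the 13843 genes tested in both organs. The spleen values of the 64 had a median of -0.095 and ran from -0.84 to 0.77, and their thymus median was -0.78. RGD1563231 had 73.3, 18.6 and 29.7 CPM in SAM spleen and 23.2, 23.3 and 14.9 CPM in Sham spleen, so the groups overlapped there and SAM 1 alone was high.

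**Figure D4:**
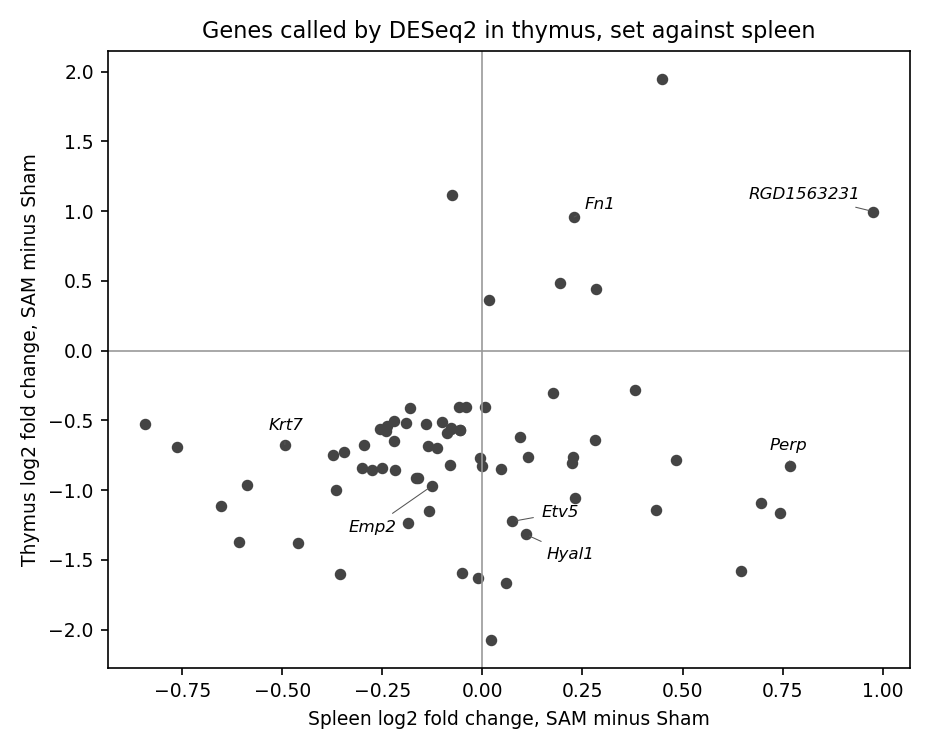
Thymus against spleen log2 fold change, SAM minus Sham in both, for the 71 genes called by DESeq2 in thymus that were tested in spleen; each point is a gene. Points lower in thymus spread on both sides of 0 in spleen, with Hyal1, Emp2 and Etv5 near 0 on the spleen axis.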

How the data were processed

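mRNA was sequenced from thymus and 3 other tissues. RNA was purified on RNeasy columns and libraries came from a stranded TruSeq mRNA kit, per the labels' protocols. The submitters' processing notes list STAR 2.2.1 and the rat build rn6, without their roles. The counter, strand setting and gene models were not given in the sources used here. The authors deposited whole-number counts per gene, not normalized, for 32883 genes. Reads of overlapping genes or near-identical copies may therefore be split in unknown ways.

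In R 4.3.3, genes with few counts were removed with filterByExpr, which left 15036. The 3 SAM and 3 Sham thymus libraries were scaled by TMM and compared with the quasi-likelihood test of edgeR 4.0.16, Benjamini-Hochberg adjusted at 0.05. SEs were derived from the F statistic. DESeq2 1.42.0 and limma-voom (limma 3.58.1) were alternatives. The scripts were run on simulated counts with known changes, 66 or 67 genes at each size. For thymus, edgeR recovered 34.3% of 1.5-fold, 52.2% of 2-fold and 92.4% of 4-fold changes, with 17 false calls. For the interaction the shares were 14.9%, 53.7% and 86.4%, with 9 false calls. Each gene was simulated independently, without the shifts that SAM 1 and Sham 15 show over many genes together. The shares and false calls may therefore differ in the real libraries. Over all pairs of thymus libraries, chi-square per degree of freedom was 7.17 to 56.4, above sampling noise, so none was a copy. Gene lists (52, with 596 of 611 symbols found) are described by counts and medians, without tests.

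The comparison and lists were chosen with earlier results of these data known. Named genes are the lowest p-values in each direction by edgeR and DESeq2, the largest fold changes, the most Krt5-like, the lowest interaction p-values, the aryl hydrocarbon receptor targets and list members. One gene that this rule names is not reported here. Genes in the last section, and single members added to complete a list's account, were chosen after their values were seen.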

Additional observations from a re-analysis of the deposited data

How the results depend on the processing

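Every alternative fit that gave other than 0 edgeR calls called genes lower in SAM. With no low-count filter or with robust fitting 3 genes were called, Krt5, Krt14 and Hyal1 (adjusted p 0.0234 to 0.0432). A fit over thymus and spleen called 3 (Krt5, Hyal1, Emp2), a fit over all 24 libraries 3 others (Gldc, Aldh1a1, Asic2), and the mitochondrial share as a covariate, added after seeing the data, 5 (Krt5, Krt14, Hyal1, Aldh1a1, Tmprss11a). Limma-voom, other scalings, a filter of 1 CPM in 3 libraries, the removal of mitochondrially encoded genes and each library left out gave 0. DESeq2 called 100 genes, between 46 (without Sham 15) and 131 (without Sham 17) with 1 library left out, 64 without SAM 1, and 41 without both SAM 1 and Sham 15. Of its calls 8 were higher and 92 lower with all 6 libraries, beside 31 and 41 without Sham 14. For the interaction DESeq2 called 3 and the other settings 0. The shared epithelial median of -0.458 was -0.234 without SAM 1 and Sham 15. Over the alternatives, members lower at an unadjusted p under 0.05 numbered 7 to 10 for basal keratins, 7 to 16 for adhesion, 4 to 13 for shared, 0 to 3 for cortical and 0 to 1 for medullary epithelium. The cause of these shifts was not tested.

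Many of the followed genes were picked by their p-values in these same libraries, so a kept direction is a description. Of 2963 pairs of a followed gene and an alternative, 2939 kept their direction. Each of the 8 genes that turned had an unadjusted p of 0.307 or more by edgeR with all 6 libraries. Without SAM 1 and Sham 15 they were Rag1 (-0.027), Psmb11 (0.051), Tiparp (0.036), Aire (0.117), Dntt (-0.101), Aldh1a7 (-0.776) and Adipoq (0.997). Dntt was -0.002 with upper-quartile scaling, and Adipoq 1.082 with limma-voom and 1.100 with the mitochondrial covariate. With 1 library left out the values ran as follows: Pax1 from -0.017 to 0.368, Psmb11 from -0.335 to 0.056, Tiparp from -0.223 to 0.048, Aire from -0.228 to 0.116, Dntt from -0.067 to 0.063, Aldh1a7 from -0.470 to 1.611 and Adipoq from -0.946 to 1.895.

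Within thymus no paired analysis was possible because the SAM and Sham animals share no number. Animal number as a replicate block in the interaction gave 0 calls (639 at an unadjusted p under 0.05, lowest adjusted p 0.0873), as without it. The numbers were not taken to pair the organs, since nothing states that equal numbers are the same rat. The correlation of thymus and spleen deviations of the same number ran from -0.015 to 0.190. For 5 of 6 animals the own number correlated best, compared only with the spleen libraries of the same exposure group. These values do not settle whether the rats are the same. Depth limits genes such as Cyp1a1 and Fgf7, whose level is near or under 1 CPM.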

Other observations

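Among the 92 genes that DESeq2 called lower in SAM were several outside the lists, chosen here after their values were seen. Pgr, the progesterone receptor gene, had 8.44, 8.81 and 3.23 CPM in SAM and 24.0, 23.6 and 13.6 CPM in Sham (log2 fold change -1.57 ± 0.38, adjusted p 0.454 by edgeR and 0.001 by DESeq2). Greb1, a gene regulated by oestrogen in breast cancer cells, had 2.47, 1.51 and 1.20 CPM in SAM and 7.34, 4.47 and 3.91 CPM in Sham. Scnn1b and Scnn1g, subunits of the epithelial sodium channel, had log2 fold changes of -1.41 and -1.40, and at both SAM 5 was the lowest library. Yap1, the effector of Hippo signalling, had 5.86, 7.97 and 6.89 CPM in SAM and 11.8, 13.5 and 12.3 CPM in Sham. Cxcl13, a chemokine that attracts B cells, had 11.7, 16.5 and 17.1 CPM in SAM and 24.3, 28.0 and 28.9 CPM in Sham, while the B cell list had 0 members at an unadjusted p under 0.05. Tnc, the matrix protein tenascin C, and F3, tissue factor, had log2 fold changes of -0.91 and -0.86.

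Some lists not described above held patterns of single libraries. The 12 tested heat-shock genes summed to 4110, 4450 and 3980 CPM in SAM and to 7040, 4230 and 4170 CPM in Sham, so that Sham 14 stood alone. Chga, a granule protein of endocrine cells, had 0.431, 0.505 and 0.569 CPM in SAM and 0.810, 13.9 and 0.508 CPM in Sham, high in the library that held Pth counts. Ribosomal protein genes lay above 0 in 80 of 87 cases, beside 7448 of all 15036 genes, with a median log2 fold change of 0.072. The groups did not overlap at 23, all higher in SAM, beside 4.97% of all genes. Of the 87, 2 (2.3%) were higher at an unadjusted p under 0.05 and 0 lower, beside 1.66% and 4.48% of all genes. The count of higher genes was 7 without Sham 17, beside 1106 of 15284 genes in either direction. It was 0 without SAM 1 and Sham 15, beside 1.51% of all genes.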
